A study of Mus musculus with 6 samples.

Results

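The 10 genes described here encode the fibroblast growth factor (FGF) receptors and a chosen set of FGF ligands: Fgfr1, Fgfr2, Fgfr3, Fgfr4, Fgfrl1, Fgf2, Fgf7, Fgf9, Fgf10 and Fgf18. They were chosen by gene symbol from 37991 gene identifiers in the deposited counts, and all 10 had a row. RNA came from YFP-sorted cells of mouse embryos at embryonic day 14.5, with 3 male and 3 female libraries, each pooled from 2 to 7 embryos. Every embryo, male or female, carried Amhr2Cre/+ and R26R YFP/+ on a mixed C57BL/6J and 129/SvEv background. The Cre is driven by the Amhr2 locus, so YFP marks cells that use that locus and cells descended from them. Males at this age are exposed to anti-Müllerian hormone and females are not, and the comparison asked how the mesenchyme that surrounds the Müllerian duct differs between the sexes.

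FGF ligands are secreted proteins that bind heparan sulfate and a receptor tyrosine kinase together, and the receptor then signals through adaptors to the RAS-ERK cascade. In organs built from an epithelium and a mesenchyme, ligands such as FGF7 and FGF10 are made in the mesenchyme and act on an FGFR2 splice form of the epithelium. FGF9 and FGF18 act mainly on mesenchymal splice forms of FGFR1, FGFR2 and FGFR3, and FGF18 with FGFR3 is best known from growing cartilage and bone. Counts per gene do not separate these splice forms.

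Male libraries of the sorted cells held much more Fgfr3 than female libraries, about 15-fold, and it was the only member to pass the test. The fitted level of Fgfr2 was 2.87 times and that of Fgf18 0.452 times the female one, both with no overlap between the sexes, and neither passed. Fgfr1, the receptor gene with the highest mean level per length in both sexes, did not pass either, nor did Fgfr4, Fgfrl1, Fgf2, Fgf9 or Fgf10. Fgf7 was below the expression filter.

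Libraries held 22511872 to 24749859 counts in genes. The summed level of 4 Y-linked genes was 52.0 to 395.5 CPM (counts relative to the TMM-adjusted library size) in male libraries and at most 0.441 CPM in female ones, and Xist stood at 1.78 to 2.22 CPM in male and 277.5 to 4729 CPM in female libraries. Mesenchymal genes were abundant, Col3a1 at 1757 to 2534 CPM in male and 1621 to 2526 CPM in female libraries. Amhr2 stood at 160.1 to 461.9 CPM in male and 324.0 to 784.1 CPM in female libraries. None of the 11 listed mesenchymal genes passed (edgeR). Pdgfra was apart and higher in male, Hoxa10, Hoxa11 and Emx2 were apart and lower, and the others overlapped. Among duct epithelium genes Cdh1 stayed at 0.803 to 1.47 CPM in male and 0.625 to 1.60 CPM in female libraries, whereas the keratin gene Krt18 reached 243.9 CPM in a male and 350.2 CPM in a female library. Libraries of replicate 1 stood apart in both sexes, in a way that went with transcript GC content and touched the members. Counts outside genes were also most frequent there, at 18.2% in male and 17.5% in female replicate 1, against 3.53% to 8.65% in the other libraries. All 5 members whose longest transcript has 55.4% to 58.8% GC were lowest in male replicate 1 among the males, and 4 of the 5 were lowest in female replicate 1 among the females. The 4 members with 38.0% to 42.2% GC were all highest in male replicate 1, and 3 of them in female replicate 1.

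Fgfr3 (ENSMUSG00000054252, chromosome 5) encodes a receptor tyrosine kinase that restrains chondrocyte growth in the growth plate. It had 1157, 1262 and 1245 counts in male replicates 1 to 3, against 77, 78 and 93 counts in female replicates 1 to 3. Scaled, that was 44.3, 62.4 and 52.5 CPM in male libraries and 2.83, 3.84 and 3.72 CPM in female libraries. The lowest male library lay far above the highest female library. Fgfr3 averaged 53.0 ± 9.08 CPM in male and 3.46 ± 0.551 CPM in female libraries (SD, n = 3 each). Its log2 ratio of male over female was 3.94 (SE 0.36), and edgeR gave an adjusted p of 0.0145 over 15227 genes. Fgfr3 was thus the 1 member of 9 tested that rose and 0 fell, while 1.23% of all genes tested were called, 0.841% higher and 0.387% lower in male. The size held under all 15 alternative settings, from 3.80 to 4.05, but the call did not. It was lost without female replicate 1, 2 or 3 (adjusted p = 0.0666, 0.0570 and 0.181) and without male replicate 2 or 3 (0.0541 and 0.119), and kept without male replicate 1 (0.0122). In these bulk samples fewer cells of a type and less RNA per cell cannot be told apart, and the labels do not say whether the pools share litters.

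G630022F23Rik, a transcript of unknown function, lies on the opposite strand over exons of Fgfr3 and shares 6.93% of the 76-base words of the longest Fgfr3 transcript. The libraries do not mark strand, so reads of that stretch cannot be told apart, and the counts of G630022F23Rik were not analysed here. Fgfr1, Fgfr2, Fgfr3 and Fgfr4 share no 76-base word with one another, which is the read length.

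RefSeq gives Fgfr3 2 start sites, and the 250 bases before each, on the plus strand of GRCm38.p6, are shown because Fgfr3 is the member that passed. The counts were made on mm9, and these coordinates were not used with them. Capitals mark GGGCGG on either strand, a GC box of the kind bound by members of the Sp family, and binding was not tested.
Fgfr3 first start, chr5:33721474-33721723: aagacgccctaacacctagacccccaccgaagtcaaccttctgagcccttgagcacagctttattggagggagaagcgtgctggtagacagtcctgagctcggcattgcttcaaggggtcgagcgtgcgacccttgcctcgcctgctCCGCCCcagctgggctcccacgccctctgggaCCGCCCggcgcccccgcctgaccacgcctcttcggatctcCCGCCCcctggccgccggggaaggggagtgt
Fgfr3 second start, chr5:33722056-33722305: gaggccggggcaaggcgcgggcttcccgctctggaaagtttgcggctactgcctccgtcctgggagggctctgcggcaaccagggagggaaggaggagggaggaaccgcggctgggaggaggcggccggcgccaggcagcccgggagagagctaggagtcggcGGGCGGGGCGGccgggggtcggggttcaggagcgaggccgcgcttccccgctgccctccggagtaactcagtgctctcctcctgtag
The first window holds 3 GC boxes and the second 2, which overlap each other. Of 32851 mouse promoter windows of this length, 32.7% hold at least 1. GGCGCC, an element bound by SMAD1 and SMAD5, occurs once in each window and in 9.59% of all windows. CTTTGAT, an element of the WNT effectors TCF and LEF, occurs in neither and in 3.21% of all windows. Both Fgfr3 windows are rich in GC, at 66.8% and 72.8%, and matches of this kind are a description of the letters.

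**Figure D1:**
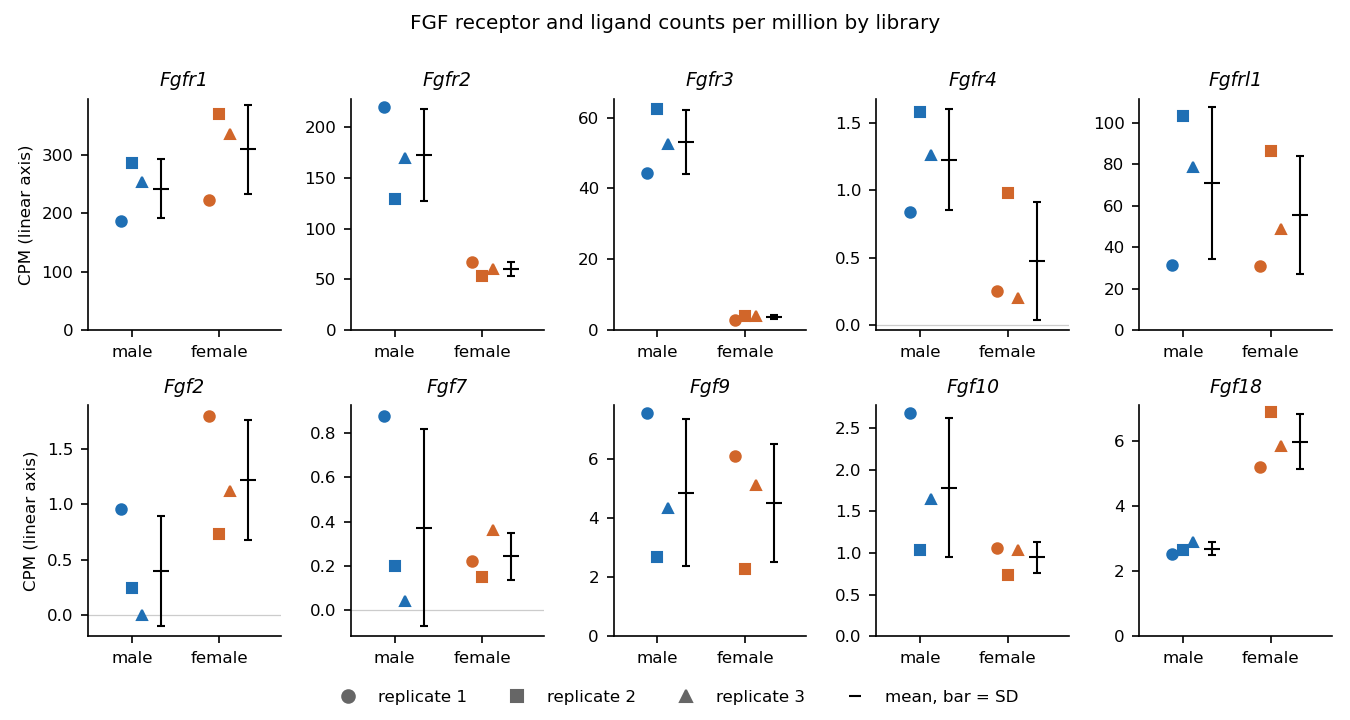
Scaled counts (CPM, linear axis) of each of the 10 genes in every library, with male libraries on the left and female libraries on the right of each panel. Symbols give the replicate number and the black bar the mean with its SD (n = 3). Fgfr3 and Fgfr2 are higher in all male libraries and Fgf18 is lower in all of them, while the other 7 genes overlap between the sexes.

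Fgfr2 encodes the receptor kinase that epithelia use for FGF7 and FGF10, and a second splice form of it is typical of mesenchyme. It had 219.6, 129.0 and 169.2 CPM in male replicates 1 to 3, against 66.8, 53.5 and 60.0 CPM in female replicates 1 to 3. Each male library exceeded each female library, although the male libraries spread widely. The mean was 173 ± 45.4 CPM in male and 60.1 ± 6.67 CPM in female libraries (SD, n = 3 each). The log2 fold change was 1.52 (SE 0.34), and Fgfr2 missed the threshold over all genes (edgeR adjusted p = 0.108). DESeq2 (adjusted p = 0.00318) and an offset for GC content and transcript length (0.0101) were among 4 alternatives of 15 that called it, and no fit without 1 library did. One Fgfr2 model in the reference annotation reaches an exon of Ctbp2 on the same strand, but no 76-base word of the longest Fgfr2 transcript is found in another gene.

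Fgfr1 encodes the receptor kinase most widely used by mesenchyme. Its level was 186.2, 285.3 and 253.1 CPM in male replicates 1 to 3 and 222.9, 369.2 and 335.1 CPM in female replicates 1 to 3. The sexes overlapped, and replicate 1 was the lowest library of both. Fgfr1 had −0.36 as its log2 fold change (SE 0.36), with an edgeR adjusted p of 0.99997. Fgfrl1 encodes a receptor that binds FGFs and heparin but lacks the kinase. It had 31.3, 103.2 and 78.7 CPM in male replicates 1 to 3 and 31.0, 86.7 and 48.7 CPM in female replicates 1 to 3. Here the 3 libraries of a sex differed more than the sexes did, and the log2 fold change was 0.36 (SE 0.57), with an edgeR adjusted p of 0.99997, turning to −0.015 without male replicate 2.

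Fgfr4, a receptor kinase best known from liver and muscle, was close to the limit of detection. It had 22, 32 and 30 counts in male replicates 1 to 3 and 7, 20 and 5 counts in female replicates 1 to 3, or at most 1.58 CPM in a male and 0.983 CPM in a female library. Its log2 fold change of 1.37 (SE 0.69) did not pass (edgeR adjusted p = 0.733), and female replicate 2 reached above the lowest male library. Without female replicate 2 its log2 fold change was 2.40, which did not pass either (adjusted p = 0.213).

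**Figure D2:**
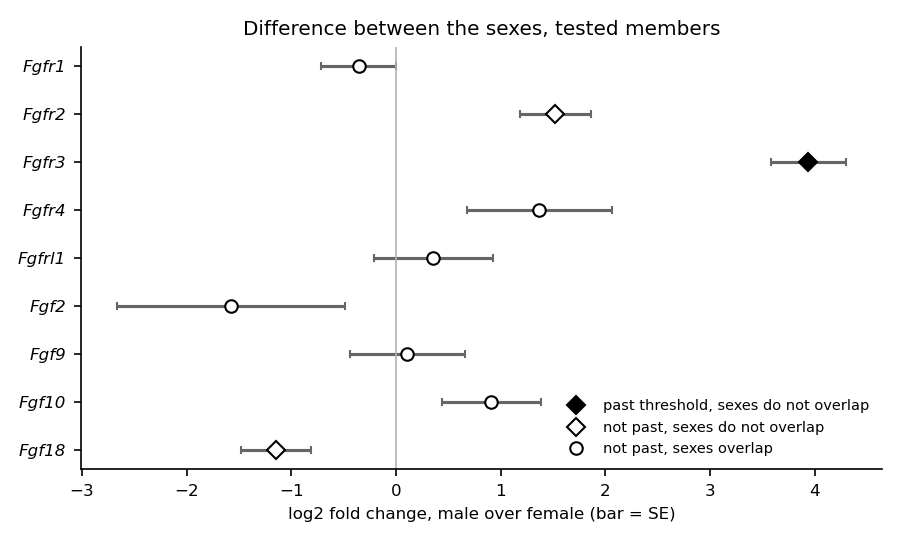
Log2 fold change of male over female for the 9 tested genes, with bars for the SE. Filled symbols passed the threshold of 0.05 on the adjusted p, and diamonds mark genes whose sexes do not overlap. Fgfr3 stands at 3.94, Fgfr2 at 1.52 and Fgf18 at −1.15.

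Fgf18 encodes a ligand of the FGF8 subfamily with roles in skeletal growth, and it went the other way from both receptors. It had 66, 54 and 69 counts in male replicates 1 to 3, against 142, 140 and 146 counts in female replicates 1 to 3. That was 2.52, 2.67 and 2.91 CPM in male libraries and 5.22, 6.88 and 5.84 CPM in female libraries, with no overlap. Fgf18 also varied least among the members within the male group, at 2.70 ± 0.193 CPM, and averaged 5.98 ± 0.842 CPM in female libraries (SD, n = 3 each). Its log2 fold change of −1.15 (SE 0.33) missed the threshold over all genes (edgeR adjusted p = 0.228). The GC content and length offset gave −1.43 without passing (adjusted p = 0.0986). Counting Fgfr2, Fgfr3 and Fgf18, 3 of 9 tested members did not overlap between the sexes, 2 higher and 1 lower in male, and 13.7% of all genes tested did not overlap, 6.47% higher and 7.27% lower in male.

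Fgf9 encodes a ligand made by mesothelia and epithelia, and by Sertoli cells in the fetal testis. It had 7.53, 2.67 and 4.34 CPM in male replicates 1 to 3 and 6.10, 2.26 and 5.12 CPM in female replicates 1 to 3. Those ranges nearly coincide. The log2 fold change was 0.11 (SE 0.55), with an edgeR adjusted p of 0.99997, and it turned to −0.21 without female replicate 2 and −0.36 without male replicate 1.

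Fgf10 encodes the mesenchymal ligand needed for lung and limb buds. It had 70, 21 and 39 counts in male replicates 1 to 3 and 29, 15 and 26 counts in female replicates 1 to 3. In CPM these were 2.68, 1.04 and 1.64 in male and 1.07, 0.738 and 1.04 in female libraries, and the lowest male library fell just below the highest female one. Its log2 fold change of 0.91 (SE 0.48) did not pass (edgeR adjusted p = 0.764). At 1.79 ± 0.829 CPM in male and 0.948 ± 0.182 CPM in female libraries (SD, n = 3 each), Fgf10 rested on 200 counts over all 6 libraries. Without male replicate 1 its log2 fold change was 0.50.

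The other ligands were hardly detected. Fgf2, a ligand without a classical signal peptide, had 25, 5 and 0 counts in male replicates 1 to 3 and 49, 15 and 28 counts in female replicates 1 to 3. The count of 0 in male replicate 3 allows up to 0.126 CPM (3 counts), a limit that covers counting error only. Its difference of −1.58 on the log2 scale (SE 1.09, edgeR adjusted p = 0.988) was −3.32 without male replicate 1 and −1.01 without male replicate 3, so its size is poorly known. Nudt6 overlaps Fgf2 on the opposite strand and held 38 to 85 counts, and 11.7% of the 76-base words of the longest Fgf2 transcript occur in Nudt6 or a further overlapping gene. Fgf7, the keratinocyte growth factor gene, had 23, 4 and 1 counts in male replicates 1 to 3 and 6, 3 and 9 counts in female replicates 1 to 3. It missed the expression filter, and fits without that filter gave 0.58 on the log2 scale with edgeR (SE 0.93) and 0.62 with DESeq2 (SE 1.13), neither past the threshold. With so few counts and so wide a spread among the male libraries, a difference between the sexes in Fgf7 is neither shown nor excluded.

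Levels were compared between genes as CPM per kb of the longest reference transcript. Fgfr1 led in both sexes, at 47.9 ± 10.03 CPM per kb in male and 61.3 ± 15.2 CPM per kb in female libraries (SD, n = 3 each). In male libraries Fgfr2 came next at 39.0 ± 10.2 CPM per kb, then Fgfrl1 at 30.5 ± 15.7 and Fgfr3 at 12.5 ± 2.14 CPM per kb. Each of those 4 overlapped the next, although Fgfr1 and Fgfr2 lay above Fgfr3 in all male libraries, and all 4 lay above Fgf18 at 2.49 ± 0.178 CPM per kb. In female libraries Fgfr1 was followed by Fgfrl1 at 23.8 ± 12.2, Fgfr2 at 13.6 ± 1.51, Fgf18 at 5.51 ± 0.775 and Fgf9 at 1.25 ± 0.555 CPM per kb. Only then came Fgfr3, at 0.815 ± 0.1298 CPM per kb, in reach of Fgf9 and above Fgf10. Fgf9 at 1.35 ± 0.688 CPM per kb followed Fgf18 in males, and Fgf10, Fgfr4, Fgf7 and Fgf2 made up the low end there, each overlapping the next. The low end in females was Fgf10, Fgf2, Fgfr4 and Fgf7, also with overlaps between neighbours. These levels depend on the transcript taken for the length, since shorter isoforms would raise them.

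The 4 receptor kinase genes summed to 97.2, 100.9 and 101.1 CPM per kb in male replicates 1 to 3 and to 60.0, 86.5 and 80.9 CPM per kb in female replicates 1 to 3. Fgfr3 made up 10.7%, 14.6% and 12.2% of that sum in male libraries and 1.11%, 1.04% and 1.08% in female libraries. The share of Fgfr2 was 51.0%, 28.9% and 37.8% in male and 25.1%, 14.0% and 16.7% in female libraries. Fgfr1 took 38.0%, 56.1% and 49.6% of the sum in male libraries and 73.6%, 84.7% and 82.1% in female libraries. Female libraries thus held mostly Fgfr1 among the receptor kinase transcripts, and male libraries a mixture of 3. The 5 ligand genes summed to only 5.56, 3.57 and 4.30 CPM per kb in male and 7.14, 7.33 and 7.38 CPM per kb in female libraries. Fgf18 was the largest part of the ligand sum in all 6 libraries, at 41.8% to 68.9% in male and 67.2% to 86.5% in female libraries. That order rests on the lengths taken, 1.086 kb for Fgf18 and 3.593 kb for Fgf9. In CPM without length, Fgf9 exceeded Fgf18 in male replicates 1 and 3 and in female replicate 1. Fgf9 equalled Fgf18 in male replicate 2 and lay below it in female replicates 2 and 3.

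**Figure D3:**
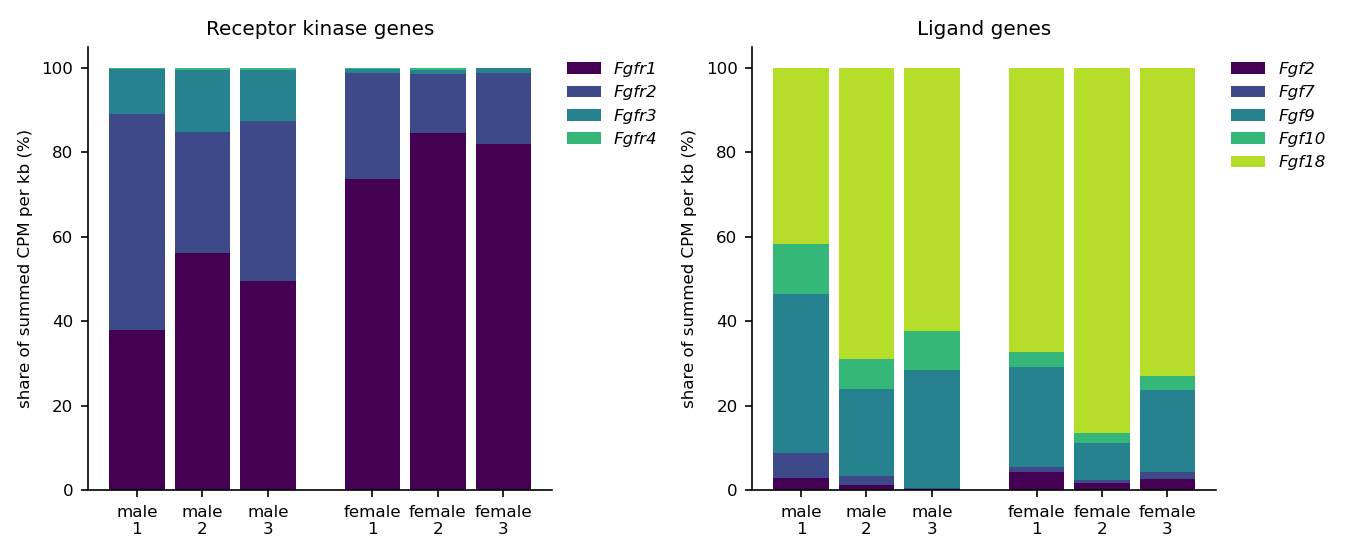
Share of each gene (%) in the summed CPM per kb of the 4 receptor kinase genes (left) and of the 5 ligand genes (right), 1 bar per library with the male libraries first. Fgfr3 takes 10.7% to 14.6% of the receptor sum in male and 1.04% to 1.11% in female libraries. With the transcript lengths taken, Fgf18 is the largest ligand share in each library.

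Summed markers of some other cell types were apart between the sexes, and other sums overlapped. The summed level of 9 Sertoli cell genes was 75.3 to 132.6 CPM in male and 15.1 to 27.5 CPM in female libraries. Of these genes 3 of 8 tested were called higher in male, against 0.841% of all genes tested. Amh was 1 of them, with 226, 363 and 595 counts in male and 15, 14 and 18 in female replicates 1 to 3 (edgeR adjusted p = 0.0194). Ptgds and Gata1 overlapped, and the other Sertoli genes were apart and higher in male. Sox9, the most abundant gene of the list, is also a chondrocyte regulator. Cst9 had 37 to 96 counts in male and 0 or 1 in female libraries. The sum of 8 endothelial genes was 146.9 to 332.7 CPM in male and 59.6 to 100.7 CPM in female libraries, most of it Kdr. Pecam1 and Cdh5 stayed below 2.53 CPM in each library. Kdr was apart and higher in male without passing (edgeR adjusted p = 0.241). Esam went the opposite way, at 1.91 to 3.75 CPM in male and 5.88 to 11.0 CPM in female libraries, also without passing (edgeR adjusted p = 0.191). The other listed endothelial genes overlapped. The pregranulosa sum was 275.1 to 552.6 CPM in male and 111.1 to 208.9 CPM in female libraries, most of it Wnt4 (adjusted p = 0.127). Other pregranulosa genes went the opposite way: Irx5 fell (edgeR adjusted p = 0.0478), with 0.191 to 0.379 CPM in male and 1.82 to 2.40 CPM in female libraries, and Foxl2, Irx3 and Rspo1 were apart and lower in male without passing. Mesothelial genes, led by Wt1, summed to 492.0 to 513.7 CPM in male and 554.0 to 669.4 CPM in female libraries. None of the 5 tested passed (edgeR). Wt1, Upk3b and Msln each overlapped between the sexes, and Lrrn4 and Upk1b were apart and lower in male. Kidney genes, led by Sall1, summed to 61.5 to 104.1 CPM in male and 132.2 to 209.6 CPM in female libraries. The 1 kidney gene that passed, Gdnf, rose instead (edgeR adjusted p = 0.0376), with 2.72 to 3.12 CPM in male and 0.257 to 0.492 CPM in female libraries. Sums of duct epithelium, leukocyte, neuron and fetal Leydig genes overlapped between the sexes, led by Krt18, Cd68, Ngfr and Star, but 2 of their genes passed. Epcam of the duct epithelium fell (edgeR adjusted p = 0.0381), with 2.13 to 3.08 CPM in male and 10.1 to 15.5 CPM in female libraries. Stmn2 of the neuron list rose (edgeR adjusted p = 0.0253), with 47.0 to 68.1 CPM in male and 9.59 to 11.7 CPM in female libraries. The part of any of these lists in the values of Fgfr3, Fgfr2 and Fgf18 was not tested.

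Of the 13 other secreted FGF ligand genes, 4 passed the expression filter. None passed (edgeR), 3 of the 4 had negative log2 fold changes, and the median was −0.73 against −0.01 over all genes tested. Fgf15, the member with the smallest p, had at most 0.191 CPM in a male and 1.08 CPM in a female library (adjusted p = 0.176). Fgf1, a ligand of all the receptor kinases, had 6.00, 3.41 and 3.29 CPM in male replicates 1 to 3 and 15.5, 6.74 and 10.6 CPM in female replicates 1 to 3 (log2 fold change −1.37, SE 0.46, edgeR adjusted p = 0.343, or 0.0470 with the offset). Fgf17 of the same subfamily as Fgf18 had 0.727, 10.7 and 4.59 CPM in male replicates 1 to 3 and 1.65, 10.3 and 2.60 CPM in female replicates 1 to 3. The libraries of each sex spread over more than the means of the sexes differ. Fgf4 and Fgf23 had no count in any library. Of the 4 FGF homologous factors, which stay inside the cell and bind sodium channels, Fgf13 had 5.58, 5.49 and 5.44 CPM in male and 18.0, 15.0 and 16.5 CPM in female libraries. None of the 3 tested passed, and Fgf13 stood at −1.59 on the log2 scale (SE 0.31, edgeR adjusted p = 0.0689). Fgf13 passed with DESeq2 (0.00113) and with the GC content and length offset (0.0119).

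Co-receptors and binding partners were described by 4 tested genes of 7. The klotho genes Kl and Klb and the carrier gene Fgfbp1 were below the filter, and none of the 4 was called (edgeR), with a median log2 fold change of −0.52. Flrt3, a membrane protein that binds FGF receptors, had 51.6, 12.4 and 21.4 CPM in male replicates 1 to 3 and 153.1, 43.6 and 102.6 CPM in female replicates 1 to 3 (log2 fold change −1.81, SE 0.69, edgeR adjusted p = 0.455), and it passed with the GC content and length offset (0.00755). None of 11 tested heparan sulfate core proteins passed, with a median of −0.26, and Gpc6 had the smallest p (log2 fold change −1.23, edgeR adjusted p = 0.553, or 0.0343 with the offset).

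Among enzymes that build and edit heparan sulfate, the sugar chain that FGF receptors need for most secreted FGFs, 1 of 18 tested fell and none rose, with a median log2 fold change of −0.08. Hs3st3a1, a 3-O-sulfotransferase gene, had 18.4, 20.3 and 23.5 CPM in male replicates 1 to 3, against 72.4, 70.2 and 94.0 CPM in female replicates 1 to 3. It fell by 1.93 on the log2 scale (SE 0.31, edgeR adjusted p = 0.0433), and passed in 8 of 15 alternatives. The call was lost in all 6 fits without 1 library (adjusted p = 0.0842 to 0.322) and with no expression filter (0.0798). The related Hs3st3b1 had −1.89 (edgeR adjusted p = 0.0613). These 2 genes share sequence, with 40.4% of the 76-base words of the longest Hs3st3a1 transcript found in Hs3st3b1 or a further gene, so their counts are uncertain against each other. Hs3st1, another 3-O-sulfotransferase gene, chosen after its values were seen, had 13.1, 24.7 and 27.4 CPM in male and 2.53, 6.24 and 4.20 CPM in female libraries (log2 fold change 2.33, SE 0.50, edgeR adjusted p = 0.0980). The sexes were apart in these 3 genes and in Hs6st3, 4 of 18 tested, against 13.7% of all genes tested.

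Below the receptors, none of 21 adaptor and RAS-ERK genes passed (edgeR), their median log2 fold change was −0.06, and all lay between −0.66 and 0.60. Gab1, a docking protein, had the smallest p at 107.4, 75.1 and 79.5 CPM in male and 150.6, 116.5 and 147.2 CPM in female libraries (edgeR adjusted p = 0.679).

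Genes that ERK signalling induces, and which restrain or carry its response, did not pass either, in 0 of 11 tested (edgeR), with 9 negative log2 fold changes and a median of −0.72. Dusp6, the ERK phosphatase, had 47.6, 74.0 and 83.8 CPM in male replicates 1 to 3 and 220.0, 337.7 and 271.9 CPM in female replicates 1 to 3. That is a log2 fold change of −2.01 (SE 0.37), just short of the threshold (edgeR adjusted p = 0.0635), and past it with DESeq2 (0.000348) and the GC content and length offset (0.00905). No fit without 1 library called Dusp6 (edgeR adjusted p = 0.104 to 0.365). In 5 of the 11 the sexes were apart, each lower in male: Dusp6, Il17rd, Etv4, Spry4 and Spred3, of which the last 4 were chosen after their values were seen. Over all genes tested 7.27% were apart and lower in male. Il17rd, Etv4, Spry4 and Spred3 had log2 fold changes of −1.35, −1.24, −0.999 and −0.72 (edgeR adjusted p = 0.153, 0.390, 0.265 and 0.504). With the offset Il17rd (0.0137), Etv4 (0.0104) and Spry4 (0.0352) passed, and with DESeq2 Il17rd (0.0256). Spry1, also chosen after its values were seen, with 113.0, 183.0 and 170.3 CPM in male and 116.4, 213.1 and 160.3 CPM in female libraries, overlapped. Over all 72 tested genes of these 7 lists, 0 rose and 1 fell (edgeR), which is 1.39% against 1.23% of all genes tested. These lists were chosen with earlier results of these data known, so such shares are descriptions. An unadjusted p under 0.05 was found for 13, or 18.1%, against 9.18% of all genes tested. The GC content and length offset called 11, or 15.3%, against 5.94% of all genes, and DESeq2 6 of the 80 with an adjusted p, or 7.5%, against 3.95%. No edgeR fit without 1 library called any of the 72, Fgf13, Flrt3, Gpc6, Il17rd, Etv4 and Spry4 included.

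**Figure D4:**
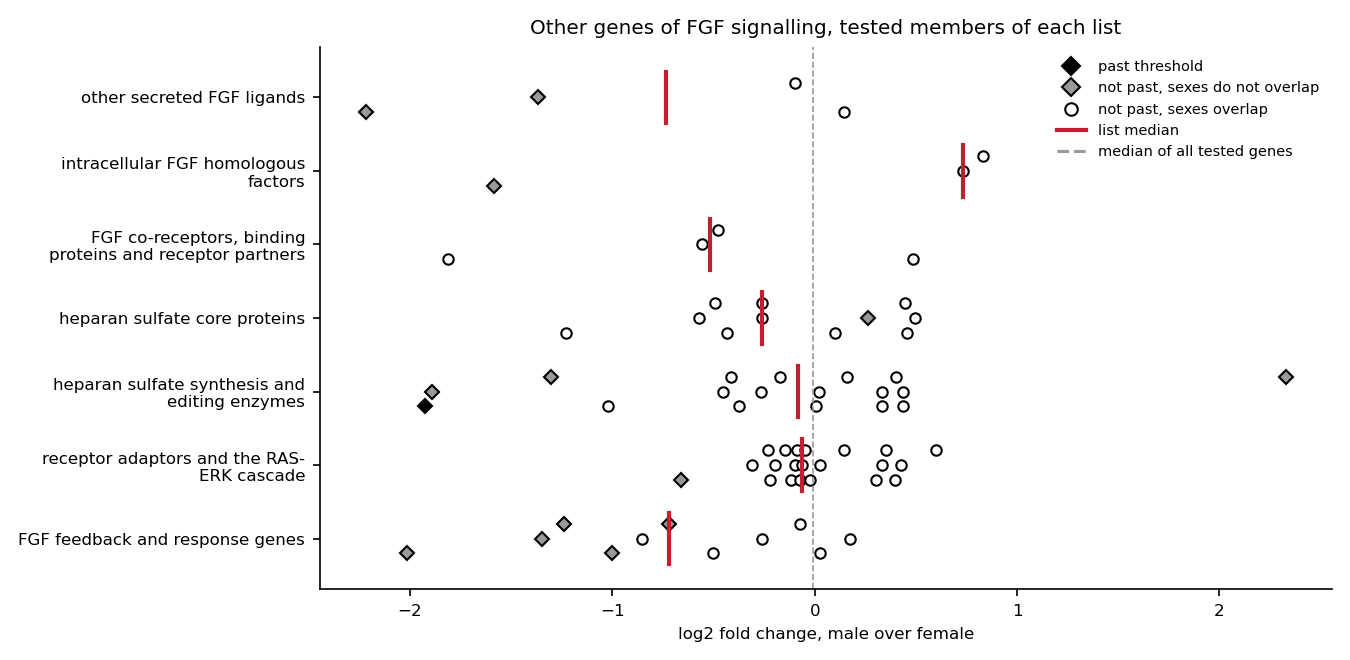
Log2 fold change of male over female for the 72 tested genes of the 7 lists of FGF signalling genes, 1 row per list. Red bars give each list's median and the dashed line the median of all genes tested. Hs3st3a1 is the 1 black symbol, at −1.93, and the feedback and response list has its median at −0.72. Grey diamonds are genes whose sexes do not overlap but which did not pass.

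Of the tested genes with a symbol, Il1f10, Lhfpl2 and Acot11 followed Fgfr3 most closely over the 6 libraries, with Pearson correlations of log2 CPM of 0.9996, 0.999 and 0.999. Lhfpl2, a membrane protein gene, had 355.1, 407.2 and 403.9 CPM in male and 93.1, 104.4 and 99.7 CPM in female libraries. Il1f10 rests on few counts, at most 3.11 CPM in a male and 0.0492 CPM in a female library. A difference between the sexes by itself gives a high value here, and 47 of 14673 genes exceeded 0.99. Fgfr1 was followed most closely by Mapk8ip2, Ccdc85c and Chst10, each at 0.995, genes which like it were lowest in replicate 1 of both sexes. The points share library depth and GC bias, and these correlations are descriptions over 6 libraries.

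**Figure D5:**
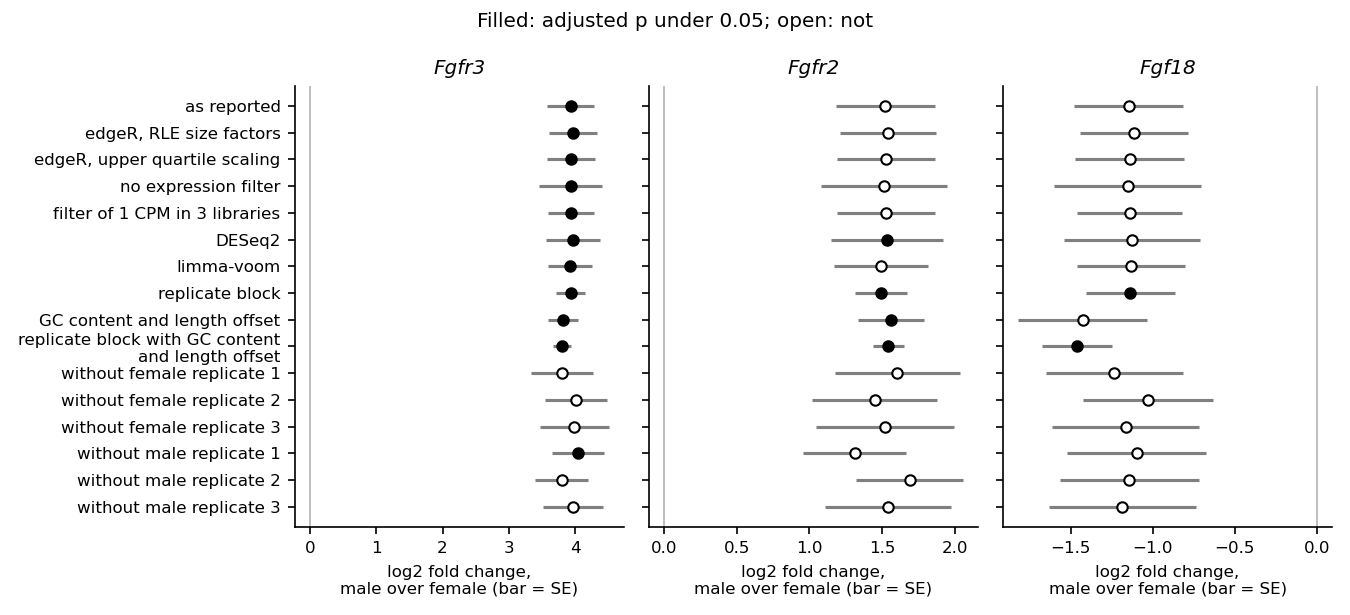
Log2 fold change of male over female of Fgfr3, Fgfr2 and Fgf18 in the fit as reported and in 15 alternatives, with bars for the SE. Filled symbols have an adjusted p under 0.05. Fgfr3 stays between 3.80 and 4.05, Fgfr2 between 1.31 and 1.69 and Fgf18 between −1.46 and −1.03, and the calls change more than the sizes.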

How the data were processed

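The authors deposited 1 file of raw counts for each library, with Ensembl genes as rows. The submitters' processing notes name mm9, TopHat, HTSeq and DESeq, with no versions or roles; the annotation and the strand setting are not stated in the sources used. Per the labels' protocols, TruSeq v2 libraries were sequenced as paired reads of 76 bases; this kit does not mark strand. The 5 summary lines that name no gene were left out. Counts outside genes made up 3.53% to 18.2% of the counts on genes, outside genes or on several genes, and counts on several genes 6.51% to 10.0%.

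Symbols, transcript lengths and GC content came from GENCODE M21 (GRCm38), and promoters from RefSeq; 32919 of 37991 identifiers had a symbol. Genes kept by filterByExpr (15227) were fitted in R 4.3.3 with the two-sided, robust quasi-likelihood test of edgeR 4.0.16, using TMM factors and a single term for sex. Benjamini-Hochberg adjustment ran over these genes, and the threshold was 0.05. The SE was taken as the size of the log2 fold change divided by the root of F. The test was checked on simulated data, drawn independently for each library and so without the GC pattern described above. The correlations of log2 CPM used a prior count of 2.

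The members and gene lists were chosen with earlier results of these data known. Named from each pathway list were up to 3 genes past the threshold per direction, or else the gene with the smallest p, from each marker list the most abundant gene, and the 3 genes most like Fgfr3 and Fgfr1. Other non-member genes, such as Fgf1, Fgf17, Hs3st3b1, Hs6st3, Irx5, Gdnf, Epcam, Stmn2, Cst9, Pecam1 and Cdh5, were chosen after their values were seen. Amh, Ptgds, Gata1, Upk3b, Msln, Lrrn4, Upk1b, Esam, Amhr2, Pdgfra, Hoxa10, Hoxa11 and Emx2 of the marker lists were also chosen that way. Spry3 and Muc16, listed genes, had no row under these symbols. Alternatives were other scalings and filters, DESeq2 1.42.0, limma-voom (limma 3.58.1), a replicate block, an offset for GC content and length (splines with 5 degrees of freedom per library), and leaving out each library.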

Additional observations from a re-analysis of the deposited data

How the results depend on the processing

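Over 15 alternatives Fgfr3 kept its direction and passed in 10. RLE or upper quartile scaling, a filter of 1 CPM in 3 libraries and limma-voom left the counts of called genes, called members and called pathway genes within 1.5 times. All genes called numbered 187, against 721 with DESeq2, 905 with the GC content and length offset and 386 at a threshold of 0.10; leaving out 1 library gave 0 to 173, with 884 and 938 genes at an unadjusted p under 0.05 in the edgeR fits that called 0. Called members numbered 1, 2 with DESeq2, 2 with the offset and 0 to 1 without 1 library (3 to 4 at an unadjusted p under 0.05). Called pathway genes numbered 1, 6 with DESeq2, 11 with the offset, 5 at a threshold of 0.10, 0 with no expression filter (14 at an unadjusted p under 0.05, edgeR) and 0 to 0 without 1 library (7 to 14). Fgfr2 passed with DESeq2 (log2 fold change 1.53) and with the offset (1.56). Without 1 library Fgfr3 lay between 3.80 and 4.05. Fgfrl1 and Fgf9, never past the threshold, turned sign without 1 library, over ranges of −0.015 to 0.84 and −0.36 to 0.40. The cause of these changes was not tested, beyond the smaller number of libraries.

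Replicate numbers were not taken as pairs: within-sex deviations of same-numbered male and female libraries correlated at 0.927, 0.852 and −0.07 for replicates 1 to 3 across genes, and male replicate 3 was closest to female replicate 2 (0.590). A replicate block called 4164 genes, 5 members and 28 pathway genes, and 4418, 6 and 30 with the offset. Log2 fold changes newly past the threshold under the block were 1.49 for Fgfr2, 1.53 for Fgfr4, −1.85 for Fgf2 and −1.14 for Fgf18, and with the offset added −0.41 for Fgfr1, 1.54 for Fgfr2, 1.34 for Fgfr4, 1.04 for Fgf10 and −1.46 for Fgf18.

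Fgf2, Fgf7, Fgfr4 and Fgf10 rest on 46 to 200 counts over 6 libraries, which limits what can be said of them.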
